A study of Mus musculus with 30 samples.

Results

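Repair of DNA interstrand crosslinks was followed through 35 genes of the Fanconi anaemia and homologous recombination pathways in a mouse B-cell lymphoma line exposed to mafosfamide. The genes were chosen by name, and a gene counted as measured where the array annotation gave a probe set that symbol alone. Of the 35, 33 were measured, among 19937 genes tested, while Xrcc2 and Rbbp8 were not analysed here. The 33 genes comprised 8 of the core complex, 3 of the ID complex and its deubiquitinase, 10 of recombination, 3 of end processing, 6 nucleases and 3 of translesion synthesis. All 33 lay above the level under which 95% of the 1027 olfactory receptor genes fell, a mean of 6.81 on the log2 scale over all arrays.

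An interstrand crosslink ties both strands of the helix together and stops a replication fork. The Fanconi core complex, with the conjugating enzyme Ube2t and the ligase Fancl, attaches ubiquitin to the Fancd2 and Fanci pair, nucleases held by Slx4 unhook the lesion, translesion polymerases copy past it, and Brca2, Palb2 and their partners repair the resulting break by recombination. Cells that lack this pathway are known for their sensitivity to crosslinking drugs. Mafosfamide is a form of cyclophosphamide that is active in culture and yields an alkylating mustard able to crosslink DNA.

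All cells were Eμ-Myc Cdkn2a-/- lymphoma of 1 C57BL/6J mouse line, in which an immunoglobulin heavy-chain enhancer drives Myc in B-lineage cells and p16INK4a and p19ARF are missing, also in the controls. They grew on irradiated Cdkn2a-/- embryonic fibroblasts, a feeder layer whose RNA can enter a sample. Parental cells were profiled at 0, 6, 12, 24 and 48 h of 750 nM mafosfamide (n = 5, 4, 4, 5 and 5 arrays). The lines R100, R500, R1000 and R4000, named for the nM dose they had reached in 1 dose escalation, were profiled once each without drug, and R500, R1000 and R4000 once each after 24 h at 750 nM. The lines are successive steps of the same selection and not separate derivations. Values are log2 expression, errors of groups are SD, and a change was called where the Benjamini-Hochberg adjusted p over all 19937 genes from limma was under 0.05.

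All 10 measured B-lineage markers lay above the olfactory receptor level, against 2 of 9 T and NK, 5 of 9 myeloid and 2 of 3 erythroid markers. Fibroblast markers were present, 26 of 28 above that level, and their mean per array was 8.0 ± 0.20 in the untreated parental cells (n = 5), 8.82 ± 0.54 after 24 h (n = 5) and 8.32 ± 0.45 after 48 h (n = 5), with 12 of the 28 called higher at 24 h. In a mixed sample, fewer cells of a type and less RNA per cell cannot be told apart. The fifth 0 h array stood apart from the other parental arrays. Its interquartile range over all genes was 2.97, against 3.36 to 3.75 on the other 29, and its mean over the 33 repair genes was 9.47, against 9.74 or more on the other 4 arrays at 0 h. It held the lowest of the 5 values for 27 of the 33 genes. Since each parental time and the resistant lines were set against the same 0 h arrays, these comparisons are not independent. The median over the 33 genes is given with and without that array in each of them, but many single genes are given with it only.

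Few repair genes were called in parental cells in the main fit, which held no replicate block. At 6 h, 0 of 33 genes were called with limma, where 0.0201% of all genes were, and 3 had an unadjusted p under 0.05 (1022 of all genes). At 12 h, 0 of 33 were called against a background of 0.512%, with 9 at an unadjusted p under 0.05 (2378 of all genes). At 24 h, 2 of 33 were called, both higher, which is 6.06% of the genes beside 6.78% of all genes in either direction and 4.35% higher (867 higher and 484 lower, or 788 and 1029 after centring arrays on their medians and 734 and 686 on housekeeping genes, with the same number of repair genes called). At 48 h, 0 of 33 were called against 0.251% of all genes, with 5 at an unadjusted p under 0.05 (2326 of all genes), and between 24 and 48 h, 0 of 33 against 0.105%, with 1 at an unadjusted p under 0.05 (1349 of all genes). The share of repair genes called at 24 h was close to that of the whole array. With the number in the array descriptions as a replicate block, 4 of 33 were called at 12 h (12.1% beside 3.55% of all genes). That block gave 7 at 24 h (21.2% beside 23.6%) and 2 at 48 h (6.06% beside 3.28%). The labels do not say that this number marks a shared culture.

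Most estimates were small and above 0. The median log2 change of the 33 genes was 0.12 at 6 h, 0.18 at 12 h, 0.08 at 24 h and 0.13 at 48 h, with 28, 28, 25 and 30 genes above 0, while the median over all genes lay at -0.01, -0.03, -0.04 and -0.02. Without the fifth 0 h array the medians were 0.03, 0.08, 0.03 and 0.04, with 20, 25, 18 and 24 genes above 0. At 24 h the signed change was lower without that array for 32 of the 33 genes, and 0 of 33 were called with limma (4 at an unadjusted p under 0.05). Some changes thereby moved farther from 0, such as that of Ercc1, from -0.17 to -0.26. Without the first 0 h array, in contrast, the 24 h median was 0.15 and 6 of 33 genes were called beside 12.2% of all genes, and with the mean of the fibroblast markers as a covariate it was 0.19 with 30 genes above 0 and 3 called beside 2.61% of all genes. The 95% interval of a 24 h change, without adjustment over genes, reached a median of 0.21 to either side (0.13 to 0.32). Smaller changes of a single gene were not detectable here, and larger ones could go uncalled, as did Brca2 at 0.34 (limma adjusted p = 0.0557). The highest upper bound at 24 h was that of Rad51b, at 0.63.

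**Figure D1:**
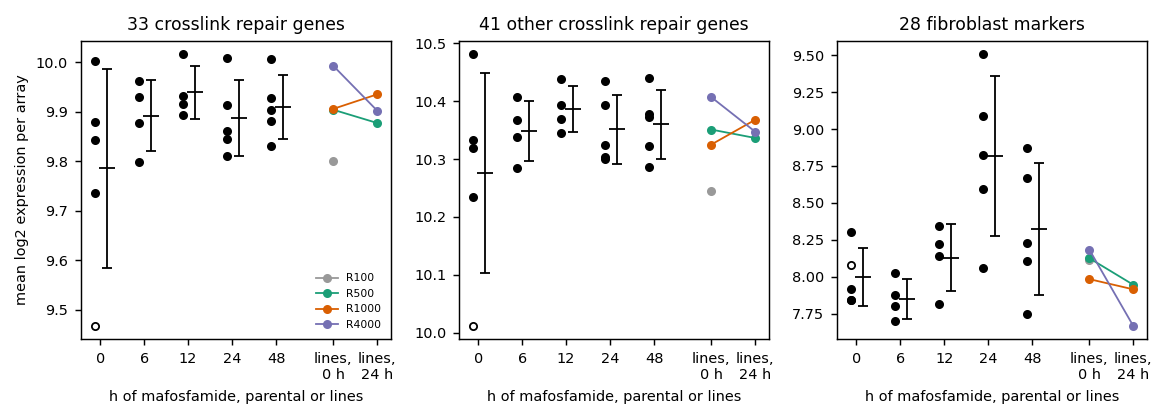
Mean log2 expression per array of the 33 repair genes, 41 other crosslink repair genes and 28 fibroblast markers, by h of mafosfamide in parental cells (evenly spaced, bars are mean and SD) and for the resistant lines (coloured, 1 array per point). The fifth 0 h array is drawn open and lies lowest in both repair lists, at 9.47 among the 33 genes, while the fibroblast mean spreads most at 24 h.

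Recombination genes carried both calls. Rad51b, a subunit of the BCDX2 complex that acts in homologous recombination, stood at 8.32, 8.12, 8.20, 8.30 and 7.91 on the 0 h arrays and at 8.41, 8.67, 8.76, 8.54 and 8.55 on the 24 h arrays. Every 24 h array lay above every 0 h array. The rise was 1.34-fold, from 8.17 ± 0.17 (n = 5) to 8.59 ± 0.13 (n = 5), a log2 change of 0.42 (SE 0.10, limma adjusted p = 0.0195). At 6 h Rad51b stood at 8.17, 8.28, 8.41 and 8.06, a change of 0.06 (adjusted p = 0.999). The 12 h arrays held 8.38, 8.68, 8.64 and 8.45, a difference of 0.37 (SE 0.11, adjusted p = 0.15), and the 48 h arrays 8.33, 8.60, 8.72, 8.56 and 8.22, a difference of 0.32 (SE 0.10, adjusted p = 0.248). The 12 h values were above all 0 h values as well, but this difference did not pass the threshold, and from 24 to 48 h the change was -0.10 (adjusted p = 0.937). Of the alternative fits, 1 of 19 called Rad51b at 12 h and 1 of 21 at 48 h.

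Rad54l, a motor protein that acts on the donor duplex during strand invasion, stood at 10.61, 10.27, 10.31, 10.40 and 10.19 at 0 h and at 10.64, 10.66, 10.83, 10.60 and 10.68 at 24 h. All but the first of the 0 h arrays lay below the 24 h arrays. It rose 1.26-fold, from 10.35 ± 0.16 to 10.68 ± 0.09 (n = 5 each), a log2 change of 0.33 (SE 0.08, limma adjusted p = 0.0212). The 48 h arrays held 10.73, 10.64, 10.87, 10.64 and 10.56, a change of 0.33 that did not pass the threshold at 48 h (SE 0.08, adjusted p = 0.0957). At 6 h it stood at 10.64, 10.50, 10.44 and 10.33, and at 12 h at 10.63, 10.76, 10.48 and 10.58, changes of 0.13 and 0.26 (adjusted p = 0.999 and 0.246). Of the alternative fits, 1 of 19 called Rad54l at 12 h and 4 of 21 at 48 h.

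Both calls were close to the threshold. Without the fifth 0 h array Rad51b stood at 0.35 (adjusted p = 0.0557) and Rad54l at 0.29 (adjusted p = 0.0564), and neither was called. Fitted on the 0 h and 24 h arrays alone, the adjusted p was 0.081 for Rad51b and 0.122 for Rad54l. Rad54l was not called without the third 0 h array either (0.32, adjusted p = 0.0534). The fibroblast mean was higher at 24 h, and with that mean as a covariate both changes were larger, 0.53 for Rad51b (adjusted p = 0.0257) and 0.43 for Rad54l (adjusted p = 0.0245). Without the 24 h arrays of the highest fibroblast mean, the first and second, a choice made after the data were seen, Rad51b stood at 0.45 (adjusted p = 0.0449) and Rad54l at 0.35 (adjusted p = 0.0567).

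**Figure D2:**
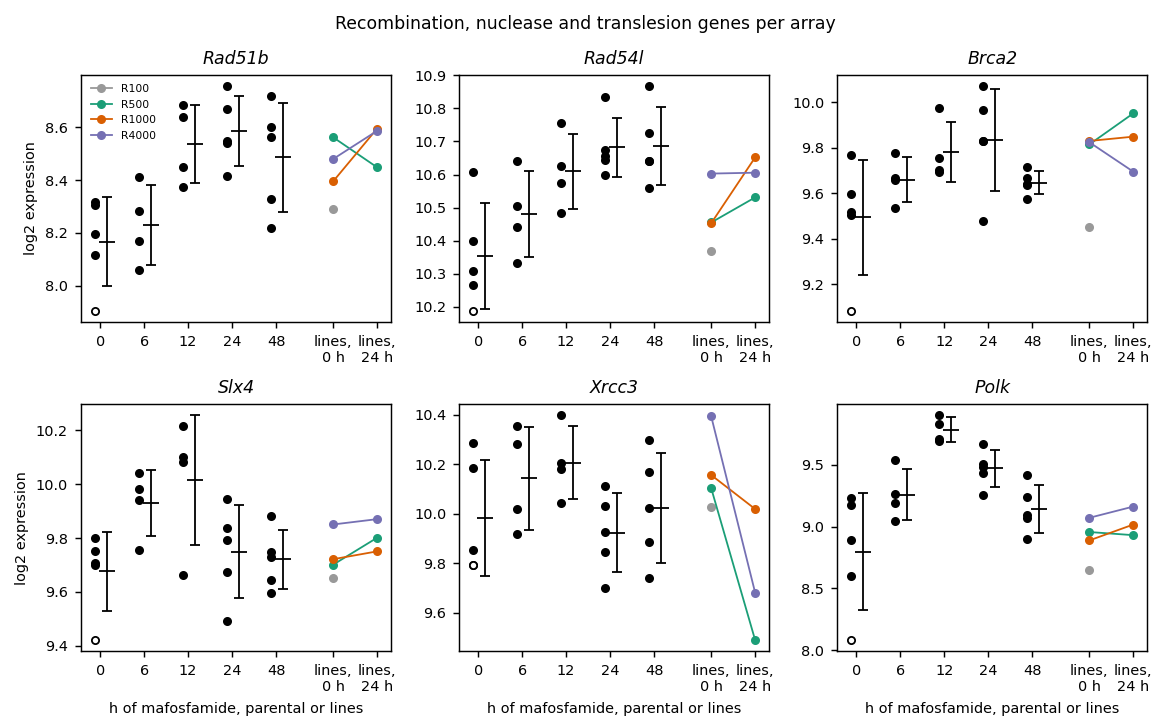
Log2 expression per array of Rad51b, Rad54l, Brca2, Slx4, Xrcc3 and Polk by h of 750 nM mafosfamide in parental cells (black points, evenly spaced, mean and SD beside them, the fifth 0 h array open) and for the resistant lines before and after 24 h of drug (coloured, 1 array per point). Rad51b rises from 8.17 to 8.59 by 24 h without overlap, Polk peaks at 12 h, and Xrcc3 lies lower in all 3 treated lines, a difference that did not pass the test.

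To show what lies at the starts of the recombination genes with the largest 24 h estimates, the 250 bases before the RefSeq start of Rad51b, Rad54l and Brca2 are printed (assembly GRCm38.p6, written 5' to 3' on the gene's strand, matches in capitals).
Rad51b, chr12:79297032-79297281, plus strand: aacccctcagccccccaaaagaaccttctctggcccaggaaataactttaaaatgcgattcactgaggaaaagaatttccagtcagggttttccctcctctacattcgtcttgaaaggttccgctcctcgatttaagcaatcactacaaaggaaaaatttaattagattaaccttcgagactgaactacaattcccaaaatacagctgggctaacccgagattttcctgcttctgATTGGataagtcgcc
Rad54l, chr4:116123691-116123940, minus strand: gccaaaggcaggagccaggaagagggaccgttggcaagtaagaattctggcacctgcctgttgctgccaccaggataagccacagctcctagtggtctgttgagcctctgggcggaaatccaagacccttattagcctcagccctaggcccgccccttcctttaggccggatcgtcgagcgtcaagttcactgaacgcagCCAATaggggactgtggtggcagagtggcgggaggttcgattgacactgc
Brca2, chr5:150522371-150522620, plus strand: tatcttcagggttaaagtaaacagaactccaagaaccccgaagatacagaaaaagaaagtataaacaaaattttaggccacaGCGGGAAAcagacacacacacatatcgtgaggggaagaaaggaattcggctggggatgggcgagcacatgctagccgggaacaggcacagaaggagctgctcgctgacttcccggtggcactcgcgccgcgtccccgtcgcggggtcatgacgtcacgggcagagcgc
The capitals mark a CCAAT box on the reverse strand 15 to 11 bases before the start of Rad51b, a CCAAT box 50 to 46 bases before the start of Rad54l, and an E2F-type match, GCGGGAAA, 168 to 161 bases before the start of Brca2. RefSeq gives Rad51b another start farther downstream. The same ATTGG begins 84 bases before that start, and a TTTGAA, counted below as CHR-type, begins at base 8 after it. From another start of Rad54l the CCAAT box begins 51 bases before. Windows of 300 bases around the start were found for 26 of the 33 genes (29 windows). A CCAAT, read on both strands, lay in 17 of the 29 windows (58.6%) and in 37.4% of all 32851 windows. An E2F-type match (TTTCCCGC, TTTGGCGC, TTTCGCGC or TTTGCCGC, both strands) lay in 4 of the 29 (13.8%), those of Brca2, Fancg and Rad51c, and in 2.26% of all windows. A CHR-type match (TTTGAA or TTCGAA, both strands) lay in 2 of the 29 (6.9%) against 19.2%, and a p53 half-site in 3 of the 29 (10.3%) against 8.36%. These shares describe letters in the windows only.

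The other recombination genes had estimates mostly above 0 that did not pass the test. Brca2, a mediator of recombination at resected DNA, stood at 9.60, 9.52, 9.50, 9.77 and 9.08 at 0 h and at 9.48, 9.83, 10.07, 9.83 and 9.96 at 24 h. The first 24 h array, which also had the highest fibroblast mean (9.51), lay within the 0 h range and the other 4 above it. The change was 0.34 (SE 0.11, 1.27-fold, adjusted p = 0.0557). Brca2 was called at 24 h in 9 of 21 alternatives. Among these were the fibroblast mean as a covariate (0.52, adjusted p = 0.0287) and leaving out the first and second 24 h arrays (0.46, adjusted p = 0.0273). Without the fifth 0 h array the change was 0.24 (adjusted p = 0.16). At 6 h Brca2 stood at 9.78, 9.66, 9.67 and 9.53, at 12 h at 9.75, 9.97, 9.70 and 9.70, and at 48 h at 9.67, 9.63, 9.71, 9.58 and 9.64. The corresponding changes were 0.17, 0.29 and 0.15 (adjusted p = 0.999, 0.346 and 0.538), and that from 24 to 48 h was -0.19 (adjusted p = 0.828).

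Palb2, which bridges Brca1 and Brca2, had the largest estimate at 48 h with all 5 arrays at 0 h. It stood at 8.65, 8.57, 8.24, 8.37 and 7.40 at 0 h and at 8.69, 8.58, 8.84, 8.57 and 8.42 at 48 h. A single 0 h array, the fifth, lay far below all others, and the groups overlapped. The change was 0.37 (SE 0.16, 1.29-fold, adjusted p = 0.38), and at 24 h, with 8.54, 8.55, 8.67, 8.36 and 8.57, it was 0.29 (adjusted p = 0.215). These changes of Palb2 were 0.16 and 0.08 without that array (adjusted p = 0.864 and 0.688). Palb2 at 6 h held 8.45, 8.29, 8.68 and 8.27, and at 12 h 8.48, 8.53, 8.56 and 8.47. Of the 10 recombination genes, 9 lay above 0 at 24 h (median 0.13) and 10 at 48 h (median 0.17), with Brca1, whose product directs breaks to recombination, at 0.06 and 0.11 (adjusted p = 0.724 and 0.634).

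None of the 8 core complex genes, Fancd2, Fanci or Usp1 was called in the main fit of all 23 parental arrays, without array weights or a replicate block. Among the alternatives, Fancd2 was called in 1 of 19 at 12 h and in 3 of 21 at 24 h, and Fancm in 1 of 21 at 24 h. The core complex is the ubiquitin ligase of the pathway, and its genes lay between -0.05 and 0.31 at 24 h (median 0.07, 7 above 0). The highest was Fancm, the translocase that brings the complex to DNA, with 8.83, 8.70, 8.74, 8.74 and 8.0 at 0 h and 8.64, 8.85, 9.12, 8.91 and 9.06 at 24 h (0.31, SE 0.12, adjusted p = 0.0982). The fifth 0 h array again lay far below the others, and without it the change of Fancm was 0.16 (adjusted p = 0.283). The ligase substrate Fancd2 stood at 0.22 at 12 h (SE 0.08, adjusted p = 0.271) and 0.18 at 24 h (adjusted p = 0.112), its partner Fanci at 0.19 and 0.12 (adjusted p = 0.402 and 0.305), and Usp1, the enzyme that takes the ubiquitin off again, at -0.10 and -0.06 (adjusted p = 0.598 and 0.615). Usp1 lay between 11.95 and 12.07 at 0 h, between 11.90 and 12.02 at 6 h, between 11.85 and 12.05 at 12 h, between 11.69 and 12.12 at 24 h and between 11.86 and 12.14 at 48 h, ranges that overlap throughout.

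**Figure D3:**
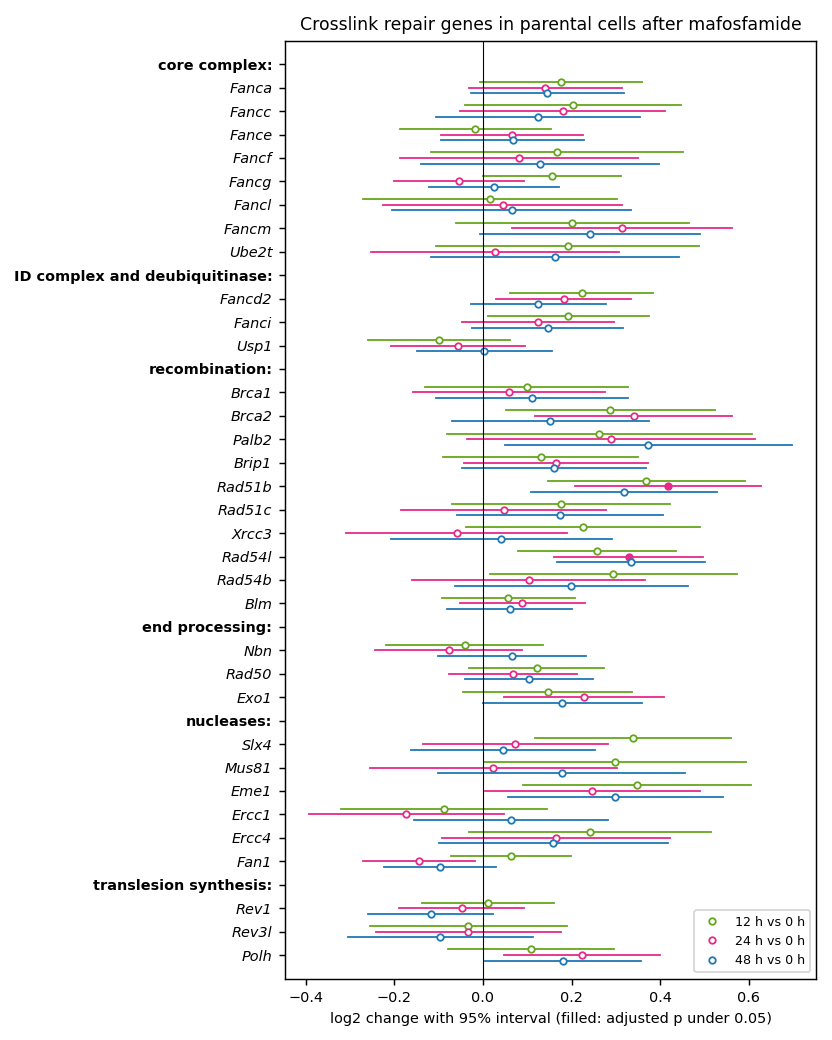
Log2 change of each of the 33 repair genes in parental cells at 12, 24 and 48 h against 0 h with its 95% interval, grouped by role. Filled points passed the test, which holds for Rad51b (0.42) and Rad54l (0.33) at 24 h alone, and all comparisons share the 0 h arrays.

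None of the 6 nuclease genes was called in the main fit of all 23 parental arrays, without array weights or a replicate block. Eme1, the partner of Mus81 in a structure-specific nuclease, stood at 10.60, 10.48, 10.06, 10.30 and 9.71 at 0 h. It held 10.55, 10.53, 10.65 and 10.41 at 6 h and 10.50, 10.67, 10.59 and 10.55 at 12 h, within or just above the upper part of the wide 0 h range. The changes were 0.30 (SE 0.12, adjusted p = 0.842) and 0.35 (SE 0.12, 1.27-fold, adjusted p = 0.295). At 24 h Eme1 stood at 10.57, 10.29, 10.66, 10.39 and 10.48 and at 48 h at 10.59, 10.44, 10.68, 10.47 and 10.47 (0.25 and 0.30, adjusted p = 0.165 and 0.357). The change of Eme1 without the fifth 0 h array was 0.18 at 6 h, 0.22 at 12 h and 0.12 at 24 h (adjusted p = 1, 0.673 and 0.501). Mus81 itself held 9.92, 9.64, 9.30, 9.84 and 9.25 at 0 h, 9.70, 9.80, 10.03 and 9.81 at 6 h, and 9.58, 9.92, 10.03 and 10.02 at 12 h. Its changes were 0.25 and 0.30 (SE 0.14 each, adjusted p = 0.999 and 0.414), with overlapping groups. Mus81 at 24 h held 9.68, 9.22, 9.85, 9.63 and 9.69, and at 48 h 9.75, 9.51, 9.93, 9.96 and 9.69, and the change between these times was 0.15 (adjusted p = 0.917).

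Slx4, the scaffold that holds the unhooking nucleases, stood at 9.80, 9.71, 9.70, 9.75 and 9.42 at 0 h, at 9.76, 10.04, 9.98 and 9.94 at 6 h, and at 9.66, 10.22, 10.10 and 10.08 at 12 h. At both times 3 of 4 arrays lay above the 0 h range, and the array numbered R2 in its description lay inside it. The changes were 0.25 (SE 0.11, adjusted p = 0.866) and 0.34 (SE 0.11, 1.27-fold, adjusted p = 0.207). Without the R2 array at 12 h, Slx4 was called at 12 h as the only one of the 33 genes (0.46, adjusted p = 0.0296), beside 0.667% of all genes. In all, 3 of 19 alternatives called it at 12 h. At 24 h it stood at 9.67, 9.49, 9.95, 9.84 and 9.79 and at 48 h at 9.65, 9.60, 9.73, 9.88 and 9.75 (0.07 and 0.05, adjusted p = 0.637 and 0.842). Ercc1, which with Ercc4 forms the nuclease that cuts beside the crosslink, had the lowest estimate at 24 h. It held 10.29, 10.01, 10.08, 10.30 and 9.72 at 0 h, 9.89, 10.07, 10.22 and 10.07 at 6 h, 9.72, 10.03, 10.16 and 10.07 at 12 h, 10.19, 9.81, 9.84, 9.87 and 9.84 at 24 h, and 10.24, 10.07, 10.04, 10.27 and 10.11 at 48 h. The change at 24 h was -0.17 (SE 0.11, adjusted p = 0.268), and 4 of 5 arrays at 24 h lay below all 48 h arrays, a difference of 0.24 from 24 to 48 h (SE 0.11, adjusted p = 0.703). Fan1, a nuclease recruited by ubiquitinated Fancd2, stood at -0.14 at 24 h (SE 0.06, adjusted p = 0.129).

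Of the end processing genes, which trim broken ends before recombination, Exo1 stood at 0.23 at 24 h (SE 0.09, adjusted p = 0.0971), Rad50 at 0.07 (adjusted p = 0.514) and Nbn at -0.08 (adjusted p = 0.519). The translesion genes Rev1 and Rev3l, a scaffold and the catalytic subunit of polymerase zeta, lay at -0.05 and -0.03 at 24 h and at -0.12 and -0.10 at 48 h (adjusted p between 0.472 and 0.84). Polh, polymerase eta, lay at 0.22 at 24 h (SE 0.09, adjusted p = 0.0969). Exo1 and Polh were each called in 2 of 21 alternatives at 24 h.

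The largest rise among the crosslink repair genes measured lay outside the 33 genes, in a further list of 45 named genes of the same process, of which 41 were measured. Polk, a translesion polymerase that is also a p53 target in mouse, stood at 9.23, 9.18, 8.60, 8.89 and 8.08 at 0 h and at 9.90, 9.71, 9.83 and 9.69 at 12 h. All 12 h arrays lay above all 0 h arrays. It rose 1.98-fold at 12 h (log2 change 0.98, SE 0.17, limma adjusted p = 0.0041) and 1.60-fold at 24 h (0.67, SE 0.16, adjusted p = 0.0163), with 9.67, 9.49, 9.50, 9.26 and 9.43 at 24 h. At 6 h it held 9.19, 9.04, 9.54 and 9.27 (0.46, adjusted p = 0.732) and at 48 h 9.24, 9.41, 9.09, 9.07 and 8.90 (0.35, adjusted p = 0.402). Without the fifth 0 h array Polk remained called, at 0.81 (adjusted p = 0.00346) and 0.50 (adjusted p = 0.0335), and with the fibroblast mean as a covariate the 12 h call stayed (0.96, adjusted p = 0.00469) and the 24 h call did not (0.54, adjusted p = 0.178). With the 0 h and later arrays of each comparison fitted alone, neither was called (adjusted p = 0.21 and 0.129).

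Of the 41 genes, 1 was called at 12 h, where 0.512% of all genes were. At 24 h 3 of the 41 were called, beside 6.78% of all genes in either direction and 4.35% higher. All these calls in the further list were higher. The other calls at 24 h were Faap24, a partner of Fancm (0.31, SE 0.08, adjusted p = 0.0269), and Rpa1, the large subunit of the single-strand binding protein (0.29, SE 0.08, adjusted p = 0.0304), and neither was called without the fifth 0 h array (adjusted p = 0.0716 and 0.0798). Among those not called, Mcm8, a helicase of recombination, stood at 0.33 at 24 h (adjusted p = 0.0536), the ligase Shprh at 0.23 at 6 h (adjusted p = 0.978), Polq, the polymerase of end joining by microhomology, at 0.29 at 12 h (adjusted p = 0.334), and Mad2l2, a subunit of polymerase zeta, at 0.23 from 24 to 48 h (adjusted p = 0.691). For scale, 10 of 20 measured p53 targets were called higher and 1 lower at 24 h (median 0.44), and 2 of 21 G1/S genes higher (median 0.13).

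To determine whether the resistant lines expressed more of the repair pathway without drug, the 4 lines were set against the 5 untreated parental arrays. Of the 33 genes 0 were called with limma, where 0.0752% of all genes were, and 7 had an unadjusted p under 0.05 (1415 of all genes). The median change was 0.12 with 29 genes above 0, where all genes had a median of -0.01 and 48.0% above 0. Without the fifth 0 h array it was 0.05 with 17 above 0, beside 0.01 and 53.1% over all genes. The 95% intervals reached a median of 0.26 to either side (0.15 to 0.47), and the highest upper bound, that of Palb2, was 0.67. On the order of selection from the parental line to R4000, 0 of 33 genes had a called slope (background 0%, since 0 of all genes were called), and 4 had an unadjusted p under 0.05 (869 of all genes). The median slope was 0.05 per step with 30 genes above 0, where all genes had a median of -0.003 and 47.1% above 0. Without the fifth 0 h array it was 0.03 with 25 above 0. Among the untreated lines, R100 had the lowest interquartile range over all genes (3.36) and R4000 the highest (3.65). Their means over the 33 genes were 9.80 and 9.99. Whether the slopes follow this spread of the arrays was not tested.

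The largest estimates were those of Exo1, Rad51b, Fancf and Nbn. Exo1, a nuclease that resects broken ends, held 10.99, 10.90, 10.69, 10.66 and 10.38 in the parental cells and 10.89 in R100, 11.04 in R500, 10.97 in R1000 and 11.06 in R4000, a difference of 0.27 (SE 0.12, 1.20-fold, adjusted p = 0.682). Rad51b stood at 8.29, 8.56, 8.40 and 8.48 in the same order of lines, 0.26 above the parental mean (SE 0.10, adjusted p = 0.597). For both genes 1 or more lines lay inside the parental range. Fancf, an adaptor of the core complex, held 10.70, 10.65, 9.89, 10.30 and 9.93 in parental cells and 10.49, 10.52, 10.45 and 10.76 in the lines (0.26, SE 0.17, adjusted p = 0.846). Nbn, a subunit of the break sensor with Rad50, held 9.57, 9.24, 9.41, 9.56 and 9.26 in parental cells and 9.54, 9.61, 9.80 and 9.67 in the lines (0.25, SE 0.10, adjusted p = 0.616). At the later parental times Exo1 lay between 10.78 and 11.07, Fancf between 10.19 and 10.72 and Nbn between 9.22 and 9.57. Rad50 stood at 0.22 in the lines (SE 0.08, adjusted p = 0.552), the smallest adjusted p of the 33 genes.

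Brca2 had the largest slope, 0.10 per step (SE 0.04, adjusted p = 0.881). It stood at 9.45 in R100 and at 9.81, 9.83 and 9.82 in R500, R1000 and R4000, above all parental 0 h arrays (9.08 to 9.77) in the later 3 lines only. The slopes of Fancf and Exo1 were 0.10 and 0.09 (adjusted p = 0.881 each). Usp1 stood at 12.17, 12.16, 12.20 and 12.18 in the lines, against 12.07, 11.95, 12.06, 12.06 and 11.98 in parental cells. These groups did not overlap, but the difference of 0.15 did not pass the test (SE 0.07, adjusted p = 0.683). In the further list, Faap24 and Fancb, a scaffold of the core complex, stood highest at 0.26 and 0.25 (adjusted p = 0.658 and 0.918), and 0 of its 41 genes were called.

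**Figure D4:**
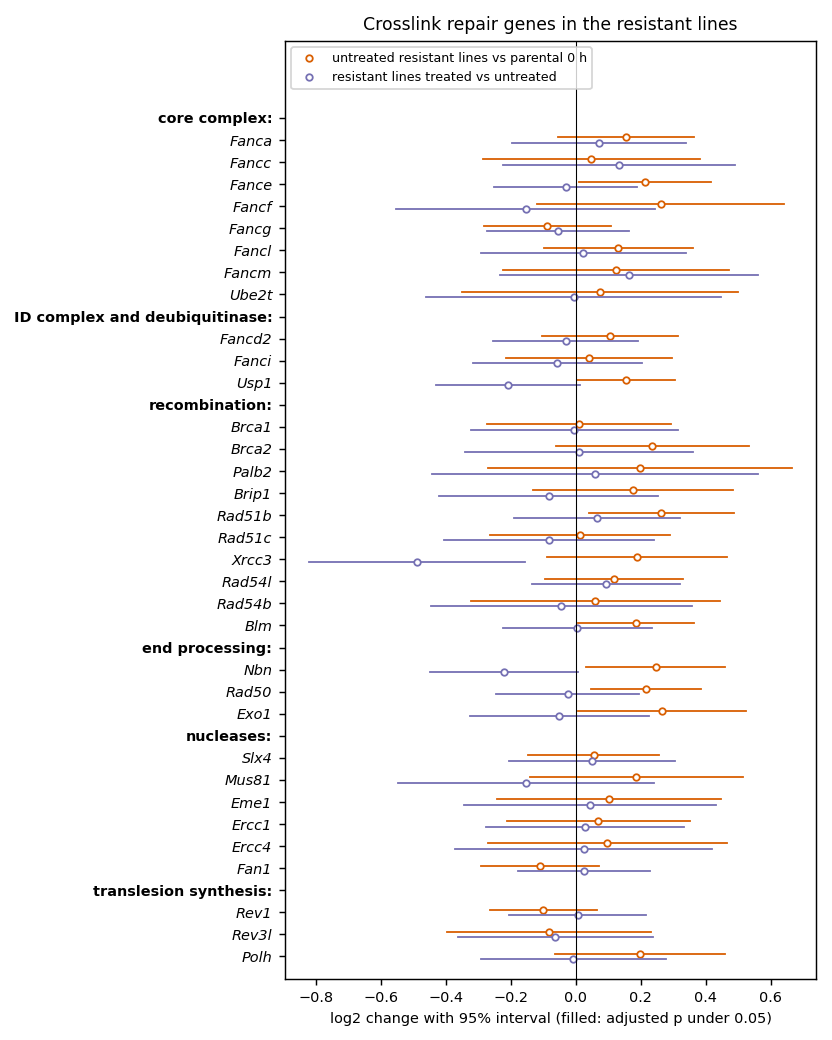
Log2 difference of each of the 33 repair genes between the 4 untreated resistant lines and parental 0 h cells (orange) and between treated and untreated R500, R1000 and R4000 (purple), with 95% intervals, grouped by role. No point is filled, since none passed the test, and Xrcc3 at -0.49 is the farthest from 0.

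After 24 h of drug, the resistant lines held 0 of 33 called genes with limma, where 0.0301% of all genes were called, and 1 gene had an unadjusted p under 0.05 (579 of all genes). The median change was -0.01, with 15 of 33 genes above 0 (over all genes, -0.02 and 43.2% above 0). It turned to 0.03 with 21 above 0 when arrays were centred on their medians. It was -0.04 with 8 above 0 both when arrays were centred on housekeeping genes and with the fibroblast mean as a covariate. The fibroblast markers themselves had a median change of -0.18, with 2 of 28 above 0. The treated array was the higher for 14 genes in R500, 21 in R1000 and 9 in R4000. It was higher in all 3 lines for 4 genes (Fancc, Fancm, Rad54l and Slx4) and lower in all 3 for 6 (Usp1, Xrcc3, Nbn, Rad50, Exo1 and Rev3l). No such counts were made over all genes, so the agreement of 3 lines is not a result about these genes. The line was the unit of the estimate here, with 1 array for each state, and intervals reached a median of 0.30 to either side. The fit also held the parental 0 h and 24 h arrays, which supplied most of its estimate of spread. These p-values and intervals thus largely measure spread among parental arrays. Without the fifth 0 h array the median change stayed at -0.01, but 937 of all genes had an unadjusted p under 0.05.

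Xrcc3, which acts late in recombination, had the largest estimate. It went from 10.10 to 9.49 in R500, from 10.16 to 10.02 in R1000 and from 10.39 to 9.68 in R4000. The treated array was the lower in all 3 lines, least so in R1000. The estimate for Xrcc3 was -0.49 (SE 0.16, 0.71-fold, adjusted p = 1, unadjusted p = 0.00698), and it ranged from -0.66 without R1000 to -0.38 without R4000. In parental cells Xrcc3 held 9.79, 10.28, 9.85, 10.18 and 9.79 at 0 h, 10.36, 10.02, 10.28 and 9.92 at 6 h, 10.40, 10.20, 10.18 and 10.04 at 12 h, 9.70, 10.03, 9.93, 10.11 and 9.85 at 24 h, and 9.89, 10.30, 10.02, 10.17 and 9.74 at 48 h, with no time set apart from another.

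Nbn went from 9.61 to 9.42, from 9.80 to 9.52 and from 9.67 to 9.48 in R500, R1000 and R4000, a change of -0.22 (SE 0.11, adjusted p = 1). Usp1 went from 12.16 to 12.02, from 12.20 to 11.98 and from 12.18 to 11.91 (-0.21, SE 0.10, adjusted p = 1). Both were lower in each of the 3 treated lines. In the further list the ubiquitin ligase Rad18 and the nuclease subunit Slx1b had the lowest estimates, -0.34 and -0.28 (adjusted p = 1 each).

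The difference in response, the 24 h change in the resistant lines less that in parental cells, was called for 0 of 33 genes (background 0%, 0 of all genes), with 2 at an unadjusted p under 0.05 (1562 of all genes). The median difference was -0.14 with 4 genes above 0, where all genes had a median of 0.02 and 53.1% above 0. Without the fifth 0 h array it was -0.05 with 10 above 0, beside 0.02 and 54.3% over all genes. The fibroblast markers had a median difference of -0.77, with 2 of 28 above 0, and with their mean as a covariate the median of the repair genes was -0.28 with 1 above 0. Xrcc3 stood lowest at -0.43 (SE 0.20, 95% interval -0.85 to -0.01, adjusted p = 0.621). Rad51b changed by 0.42 in parental cells and by 0.06 in the lines, where it went from 8.56 to 8.45 in R500, from 8.40 to 8.59 in R1000 and from 8.48 to 8.59 in R4000. The difference of -0.35 did not pass the test (SE 0.15, 95% interval -0.68 to -0.03, adjusted p = 0.588), so the response of Rad51b was not shown to differ between the parental and resistant cells. Brca2 went from 9.81 to 9.95, from 9.83 to 9.85 and from 9.82 to 9.69, a difference in response of -0.33 (SE 0.21, adjusted p = 0.699), and Rad54l from 10.46 to 10.53, from 10.45 to 10.65 and from 10.60 to 10.61, a difference of -0.24 (SE 0.13, adjusted p = 0.68). Polk had the lowest value of the further list, -0.61 (SE 0.28, adjusted p = 0.639), followed by Fancb at -0.36 (adjusted p = 0.784).

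**Figure D5:**
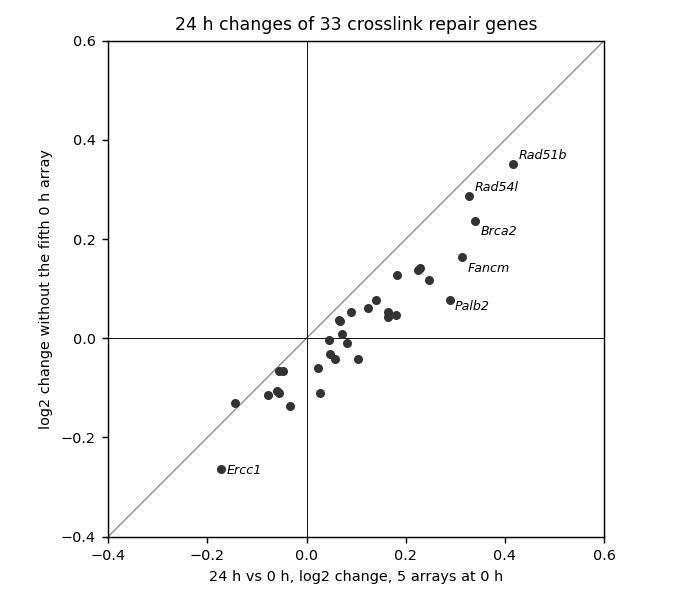
Log2 change from 0 to 24 h of each of the 33 repair genes with all 5 arrays at 0 h (horizontal) and without the fifth (vertical), with the line of equal values. For 32 of the 33 genes the signed change is lower without that array, and Rad51b goes from 0.42 to 0.35.

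Over the 23 parental arrays, the deviations of the 33 genes from their time means had a median correlation of 0.461 over 528 pairs, with 246 pairs (46.6%) above 0.5 and 36 pairs below 0. Without the fifth 0 h array the median was 0.356, with 175 pairs (33.1%) above 0.5 and 95 below 0. These pairs share arrays and their normalization, no such value was computed for pairs of other genes, and the values are a description of these arrays. The genes whose level over the 23 arrays was most like that of Rad51b were Scp2 (Pearson r = 0.931), Dnal1 (0.905) and Gmds (0.905), and those most like Rad54l were Mcm8 (0.899), Klhl5 (0.885) and Gpm6b (0.88). Without the fifth 0 h array the list of Rad51b was led by the same 3 genes (0.915, 0.878 and 0.877), and that of Rad54l by Kntc1 (0.889), Mcm8 (0.884) and Klhl5 (0.86).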

How the data were processed

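The deposited log2 values were made by the authors from Affymetrix Mouse Gene ST 1.0 arrays by robust multi-array averaging (justRMA of the affy package). The procedure scales probes between arrays by quantiles, so total RNA per cell cannot be read. The submitters' processing notes name mm9, and no array coordinates are printed. Of 34760 probe sets, the platform annotation listed 22961, of which 21640 had 1 symbol and 1321 several. The probe set of highest mean stood for the 954 genes with more than 1 (Nbn among the repair genes, with 2), which left 19937 genes. Entrez identifiers of 21553 probe sets matched RefSeq GRCm38.p6 and no symbol was updated. Promoter windows are RefSeq's.

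Fits used limma 3.58.1 (lmFit, eBayes) in R 4.3.3, with Benjamini-Hochberg adjustment over all genes, and were tested on simulated data. The 23 parental arrays were fitted together. The untreated lines were compared with 0 h as a mean and as a slope, and the treated lines in a fit of 16 arrays with a term per line. Genes named are those called, the 3 largest changes per comparison among the repair genes, and those called or the 2 largest in the further list. Genes outside this rule (Brca1, Fancd2, Fanci, Fancm, Fan1, Rad50, Rev1, Rev3l and Polh) were chosen after their values were seen. The genes, lists and fits were chosen with earlier results of these data known. Alternatives were 2 array centrings, a filter on dim genes, probe-set means, array weights, an intensity trend, a fibroblast covariate, replicate numbers as a block, fewer arrays in the fit and each array left out. Between parental times, the p-values measure the spread between replicate arrays of 1 lymphoma line. For the untreated lines and the slope they also hold the spread between lines, with 1 array each. For the treated lines they largely measure spread among parental arrays. Array number limits the precision.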

Additional observations from a re-analysis of the deposited data

Results flagged for a closer look

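Single arrays stood far from the rest of their group for 8 of the 198 gene and group sets examined with Dixon's test, where chance flags about 1 in 20. The fifth 0 h array gave 4 of them, all low: Fanca at 9.68, Fancg at 9.75, Fancm at 8.0 and Slx4 at 9.42. The other 4 were Fance at 10.11 on the first 48 h array, Usp1 at 11.90 on the 6 h array numbered R2 in its description, Brca2 at 9.45 in untreated R100 and Ercc1 at 10.19 on the first 24 h array. No gene had a called difference in response between parental and resistant cells.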

How the results depend on the processing

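The number of repair genes called was 0 in the 4 comparisons of the resistant lines and at 6 h under every alternative run. At 12 h, array weights gave 1 call, beside 1.4% of all genes. At 24 h, fitting the compared times alone gave 0, beside 0.612% of all genes. The dim-gene filter, array weights and the fibroblast covariate gave 3 each, beside 9.8%, 5.01% and 2.61% of all genes. At 48 h the fibroblast covariate gave 1 beside 0.717% of all genes, and from 24 to 48 h array weights gave 2 beside 3.51%. Leaving out 1 array gave 0 to 1 calls at 12 h and also at 48 h, and 0 to 6 calls at 24 h. At 24 h these were 0 without the fifth 0 h array (3.13% of all genes), 1 without the third (2.63%) and 6 without the first (12.2%). At 12 h the count was 1 without the 12 h array numbered R2 in its description (0.667%), and at 48 h 1 without the first 0 h array (1.1%). The cause of these shifts was not tested. For named genes, 858 alternative values kept side and direction, 24 passed the threshold only under the alternative, 25 lost it, and 0 called values turned direction. Rad51b at 24 h was called in 19 of 21 alternatives and Rad54l in 17 of 21.

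The labels do not say that a number marks a shared culture or day. Deviations of same-numbered arrays correlated at 0.065 to 0.773 (41 of 43 pairs over 0.1), and 19 of 23 arrays correlated best with their own number, a hint from the data only, so the arrays were taken to share only a number. Taking the number in the descriptions as a replicate block called 4 genes (12 h), 7 genes (24 h) and 2 genes (48 h), or 12.1%, 21.2% and 6.06% beside 3.55%, 23.6% and 3.28% of all genes. The number in the titles called 4 (24 h) and 1 (48 h), or 12.1% and 3.03% beside 13.7% and 0.988% of all genes. Over all genes, the count at 24 h ran from 122 to 4711 between settings and from 524 to 2678 with 1 array left out, that at 12 h from 18 to 708 and 43 to 179, at 48 h from 5 to 654 and 17 to 219, at 6 h from 0 to 62 and 0 to 21, and from 24 to 48 h from 14 to 700 and 10 to 25. For the untreated lines it ran from 6 to 100 and 0 to 24, for the treated lines from 5 to 161 and 2 to 8, and for the difference in response from 0 to 14 and 0 to 128.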
